A study of Mus musculus with 6 samples.

Results

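The liver clock reaches metabolism through a small set of output genes, and 10 of them were followed here in mice given a single dose of ethanol: Dbp, Tef, Hlf, Nfil3, Ciart, Bhlhe40, Bhlhe41, Usp2, Noct and Wee1. They were taken by gene symbol from a table of 28880 genes, and each symbol matched 1 gene. Livers came from male wild type C57BL/6J mice aged 6 to 8 weeks, with 3 libraries in the acute ethanol-exposed group and 3 in the control group, each from its own mouse. The ethanol-exposed mice had gone 12 h without food before an oral dose of 6 g/kg of ethanol, given as a 50% solution, and their livers were collected 24 h after it. Control mice received no ethanol. Whether they were fasted, and the hour of day at which livers of either group were taken, are not given in the sources used here, so ethanol, fasting and clock time cannot be told apart in this design.

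In the clock, the activators CLOCK (or NPAS2) and BMAL1 bind E-box elements and drive transcription of their own repressors and of output genes. DBP, TEF and HLF, the PAR bZIP factors, carry the rhythm onward by activating genes with D-box elements, at which NFIL3 (E4BP4) acts as a repressor. CIART (CHRONO) represses the CLOCK and BMAL1 complex, while BHLHE40 and BHLHE41 (DEC1 and DEC2) are repressors that bind E-boxes themselves. In undisturbed mouse liver, transcripts of Dbp and Tef peak in phase with each other, and those of Nfil3 and Bmal1 at nearly the opposite time. USP2 is a deubiquitinase, nocturnin (Noct) a rhythmic phosphatase that acts on NADP(H) and has been linked to lipid handling, and WEE1 a kinase that holds back entry into mitosis.

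Promoter windows were examined first, for the elements through which the clock is known to drive its output genes. RefSeq windows (GRCm38.p6) from 250 bases before to 50 after each annotated start were found for 8 of the 10 genes, 9 windows in all since Tef has 2 starts; Bhlhe40 and Wee1 were not matched. The E-box CACGTG was present in 4 of the 9 windows, against 7.15% of all 32851 windows of that length. These were the Ciart window, both Tef windows and the Bhlhe41 window. The 250 bases upstream of the start are shown for them, 5′ to 3′ on the strand of the gene, with the E-box in capitals.
Ciart, chr3:95882229-95882478, minus strand: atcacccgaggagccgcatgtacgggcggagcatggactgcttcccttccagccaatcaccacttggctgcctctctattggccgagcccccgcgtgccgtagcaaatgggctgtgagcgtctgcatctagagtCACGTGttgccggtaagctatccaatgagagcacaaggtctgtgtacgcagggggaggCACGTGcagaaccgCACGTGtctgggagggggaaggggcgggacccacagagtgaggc
Bhlhe41, chr6:145865421-145865670, minus strand: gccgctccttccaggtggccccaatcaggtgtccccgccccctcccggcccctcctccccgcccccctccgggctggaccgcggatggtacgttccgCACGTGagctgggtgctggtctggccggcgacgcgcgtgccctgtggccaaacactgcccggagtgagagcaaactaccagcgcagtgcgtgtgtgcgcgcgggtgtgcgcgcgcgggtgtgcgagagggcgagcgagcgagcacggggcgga
Tef start 1, chr15:81802423-81802672, plus strand: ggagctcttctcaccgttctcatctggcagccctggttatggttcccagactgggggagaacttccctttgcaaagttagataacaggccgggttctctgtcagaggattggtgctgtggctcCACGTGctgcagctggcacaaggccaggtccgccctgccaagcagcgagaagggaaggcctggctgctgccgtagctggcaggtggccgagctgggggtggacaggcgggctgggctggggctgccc
Tef start 2, chr15:81811164-81811413, plus strand: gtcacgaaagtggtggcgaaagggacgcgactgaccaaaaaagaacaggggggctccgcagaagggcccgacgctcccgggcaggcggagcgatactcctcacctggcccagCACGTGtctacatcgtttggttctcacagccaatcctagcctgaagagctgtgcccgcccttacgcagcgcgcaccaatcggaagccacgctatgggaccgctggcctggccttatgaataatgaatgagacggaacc
Ciart held 3 E-boxes, whose first bases lay 116, 58 and 44 bases before the start, and the others held 1 each.

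A ROR element, searched as TAGGTCA on both strands, lay 12 bases before the start of Nfil3, and 2.61% of all windows held one. Hlf held a cyclic AMP response element (CRE, TGACGTCA) 9 bases before its start, a sequence present in 1.79% of windows. Both upstream sequences follow with these matches in capitals. Nfil3 is the D-box repressor, and Hlf is the activator whose level differed least between the groups with TMM scaling. With library size alone Tef differed least, at a log2 fold change of 0.65 beside -0.85 for Hlf. TGACCTA is the ROR element read on the other strand.
Nfil3, chr13:52981040-52981289, minus strand: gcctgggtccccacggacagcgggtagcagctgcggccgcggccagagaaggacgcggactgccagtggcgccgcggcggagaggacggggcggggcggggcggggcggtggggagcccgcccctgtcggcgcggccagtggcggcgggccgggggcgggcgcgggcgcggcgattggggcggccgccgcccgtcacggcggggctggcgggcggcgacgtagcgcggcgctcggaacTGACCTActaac
Hlf, chr11:90390918-90391167, minus strand: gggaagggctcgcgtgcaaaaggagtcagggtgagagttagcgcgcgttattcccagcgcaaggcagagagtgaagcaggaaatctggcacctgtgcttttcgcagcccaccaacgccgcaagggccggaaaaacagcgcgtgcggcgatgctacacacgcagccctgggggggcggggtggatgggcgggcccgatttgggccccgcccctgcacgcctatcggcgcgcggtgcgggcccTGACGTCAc
The windows of Dbp, Usp2 and Noct held none of the 5 motifs searched, and no window held CACGTT (4.68% of all windows) or the D-box TTANGTAA (2.32%). No matches overlapped, and the Usp2 window lies at an annotated start inside the gene. A match describes these letters only and is not evidence of binding, and elements outside the windows were not searched.

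**Figure D1:**
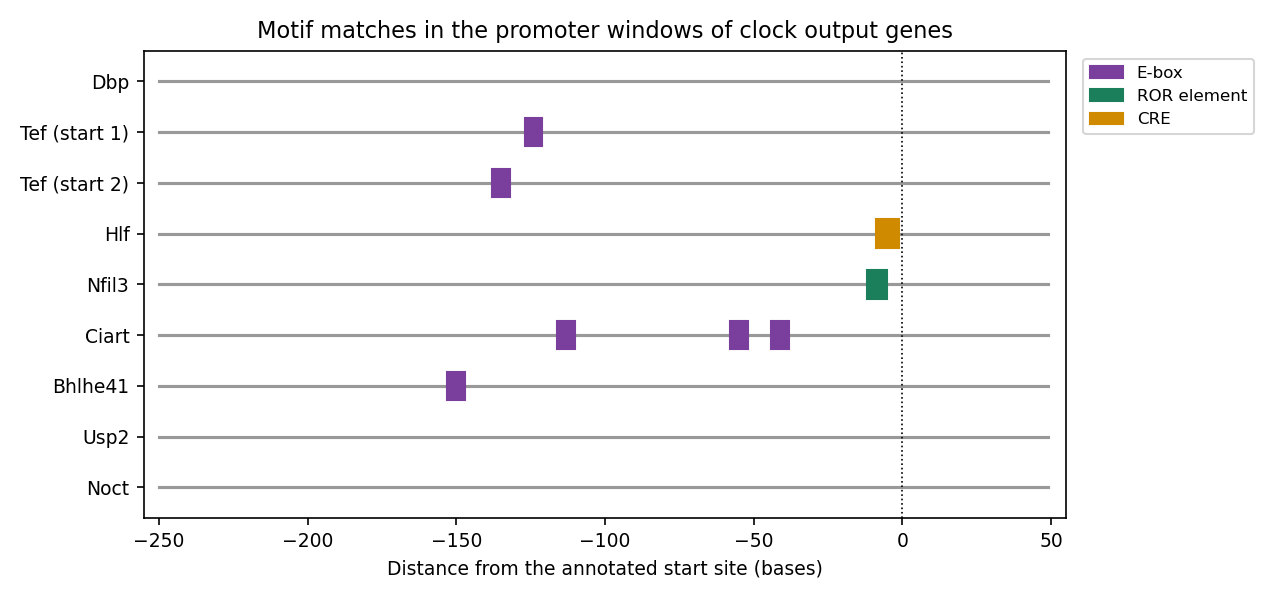
Motif matches in 9 promoter windows of 8 clock output genes, by distance in bases from the annotated start (dotted line). Boxes mark E-box, ROR element and CRE matches on either strand; Ciart carries 3 E-boxes between 116 and 44 bases before its start.

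In livers of acute ethanol-exposed mice, 9 of the 10 genes were higher than in control mice. These were called at an adjusted p under 0.05 with a log2 fold change beyond 1 (quasi-likelihood test of edgeR, two-sided, with Benjamini-Hochberg adjustment over the 16717 genes tested). The same rule called 24.2% of all genes tested, 10.4% higher and 13.8% lower. In each of the 9 genes all 3 ethanol-exposed mice lay above all 3 control mice, as did 28.0% of the genes tested, with 31.0% on the opposite side. None of the 10 was called lower by edgeR, DESeq2 or limma. In edgeR with TMM scaling on all 6 libraries, 0 had an unadjusted p under 0.05 in that direction. The median log2 fold change of the 10 was 2.74, against -0.04 over all genes tested. All 10 genes passed the filter on low counts.

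Before the individual values, 3 properties of the libraries bear on them. Libraries held 60514417 to 74210869 counts, and TMM normalization gave factors of 0.768 to 0.836 for the ethanol group and 1.26 to 1.27 for the control group. With library size alone in their place, the median over all genes tested moved to -0.71 and the share of calls that were higher from 43.0% to 13.6%, so each change is relative to this scaling. Ethanol replicate 3 stood apart from its group: its log2 CPM correlated with ethanol replicates 1 and 2 at 0.949 and 0.943, while these correlated with each other at 0.968 and control libraries at 0.976 to 0.981. It was the lowest ethanol library in 8 of the 10 genes and in 39.1% of all genes tested. Without it, the same 9 genes were called. Sums of cell markers in TMM-scaled CPM also differed between the groups. These sums carry the same factors and were not taken with library size alone. Which of them would separate or overlap without TMM is therefore not given here. Summed over 6 hepatocyte markers, the level was 124555 to 128083 CPM in ethanol-exposed and 68321 to 79277 CPM in control mice, and over 5 erythroid markers it was 476 to 708 against 157 to 193 CPM. The 5 neutrophil markers summed to 2.12 to 12.1 CPM, highest in ethanol replicate 3, against 0.118 to 0.401 CPM. Sums were lower for the 5 Kupffer cell markers (65.7 to 88.2 against 89.8 to 94.1 CPM). They were also lower for the 5 T cell (0.556 to 0.715 against 1.67 to 2.47 CPM) and 3 pancreas markers (9.32 to 11.0 against 17.2 to 21.6 CPM). Tested singly, 0 of 5 Kupffer cell, 1 of 3 T cell and 0 of 1 pancreas markers were called lower. The share over all genes tested was 13.8%. Called higher were 2 of 6 hepatocyte, 3 of 4 erythroid and 4 of 4 neutrophil markers tested, beside 10.4% of all genes tested. The sums of 5 endothelial, 5 stellate, 5 cholangiocyte and 4 B cell markers overlapped between the groups. No marker stayed at 3 counts or fewer in every library. However, only 1 of 5 neutrophil, 1 of 5 T cell, 1 of 3 pancreas and 2 of 4 B cell markers exceeded 3 counts in every library. The part of these cells in the changes was not tested, and in whole liver fewer cells of a type cannot be told apart from less RNA per cell.

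Among the D-box activators, Dbp rose most, Tef rose evenly and Hlf was not called. Dbp (ENSMUSG00000059824, chromosome 7, 45354512 to 45359627, coordinates as deposited here and for the genes that follow) had 669, 389 and 212 counts in ethanol replicates 1, 2 and 3, and 32, 19 and 17 counts in control replicates 1, 2 and 3. On the TMM-scaled CPM scale these were 11.6, 6.36 and 3.88 against 0.341, 0.249 and 0.206. The ethanol libraries spanned a wide range and their lowest value was still far above the highest control value. Dbp was thus 4.76 higher on the log2 scale (standard error, SE, 0.49, adjusted p = 0.000513), a 27.2-fold difference. Dbp shares its last 737 bases with Sphk2, transcribed from the other strand, whose log2 fold change was -0.09.

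Tef (ENSMUSG00000022389, chromosome 15, 81686622 to 81711064) was at 49.4, 51.6 and 55.5 CPM in ethanol replicates 1 to 3 and at 22.0, 19.6 and 21.0 CPM in control replicates 1 to 3. It varied little within either group, and it was highest in ethanol replicate 3, where most of the other genes were lowest. Tef rose by 1.32 on the log2 scale (SE 0.10, adjusted p = 0.000203), which became 0.65 with library size alone (adjusted p = 0.00201), below the threshold on the fold change.

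Hlf (ENSMUSG00000003949, chromosome 11, 90227362 to 90281721) was at 19.3, 22.7 and 25.2 CPM in ethanol-exposed mice and 24.3, 26.2 and 25.9 CPM in control mice, so that the groups overlapped on this scale. On the deposited FPKM scale they did not overlap, at 2.09, 2.65 and 2.70 FPKM in ethanol-exposed and 4.29, 4.62 and 4.56 FPKM in control mice. With TMM scaling, the log2 fold change of Hlf was -0.18 (SE 0.13, adjusted p = 0.269). With library size alone it was -0.85 (adjusted p = 0.00148), still within the threshold on the fold change.

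Nfil3, the repressor at D-boxes, rose, as did the activators Dbp and Tef but not Hlf. Nfil3 (ENSMUSG00000056749, chromosome 13, 53121245 to 53135109) was at 368, 344 and 165 CPM in ethanol replicates 1, 2 and 3, against 57.4, 63.5 and 58.6 CPM in control replicates 1, 2 and 3. Ethanol replicates 1 and 2 lay close together and replicate 3 lay between them and the controls. Nfil3 rose by 2.29 on the log2 scale (SE 0.29, adjusted p = 0.00123), and 2.58 without ethanol replicate 3.

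The E-box repressors were all higher in ethanol-exposed mice. Ciart (ENSMUSG00000038550, chromosome 3, 95785815 to 95789543), whose promoter window held 3 E-boxes, was counted 1664, 1699 and 1297 times in ethanol replicates 1, 2 and 3 but 25, 4 and 39 times in control replicates 1, 2 and 3. The corresponding levels were 28.9, 27.8 and 23.8 CPM against 0.266, 0.0525 and 0.474 CPM. The ethanol libraries were close to each other, while the control libraries were low and varied among themselves. Ciart ranked 58 among all genes tested by the size of its rise, 6.64 on the log2 scale (SE 0.55, adjusted p = 0.000243). It was 7.32 without control replicate 3 and 6.18 without control replicate 2. Ciart lies within C920021L13Rik, a gene of the other strand with 19 to 105 counts per library. These are of the size of the Ciart counts in control mice, and the strand used for counting is not given in the sources used here.

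Bhlhe40 (ENSMUSG00000030103, chromosome 6, 108637590 to 108643886) was at 328, 478 and 147 CPM in ethanol replicates 1, 2 and 3 and at 45.6, 85.9 and 79.2 CPM in control replicates 1, 2 and 3. Ethanol replicate 3 was less than a doubling above the highest control library. The log2 fold change was 2.18 (SE 0.44, adjusted p = 0.00712). Bhlhe41 (ENSMUSG00000030256, chromosome 6, 145803969 to 145811284) had 447, 711 and 105 counts in ethanol-exposed mice and 31, 31 and 38 in control mice. Its levels were 7.77, 11.6 and 1.92 CPM against 0.330, 0.407 and 0.461 CPM, and ethanol replicate 3 was at 0.198 of the mean of the other ethanol libraries. The log2 fold change was 4.15 (SE 0.65, adjusted p = 0.00265), and 4.61 without that library. With limma on log2(FPKM + 1) without a filter on low values, neither Bhlhe40 (adjusted p = 0.0875) nor Bhlhe41 (adjusted p = 0.0745) was called, and with the filter Bhlhe41 was at 0.70. Gm43909, on the opposite strand within Bhlhe41, had 1 to 18 counts in the 6 libraries.

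Of the output effectors, Usp2 and Wee1 rose and the call of Noct depended on single libraries. Usp2 (ENSMUSG00000032010, chromosome 9, 43978318 to 44006924) was at 23.7, 26.8 and 9.0 CPM in ethanol-exposed mice and 1.35, 2.32 and 1.97 CPM in control mice. Every ethanol library was well above the controls, and replicate 3 was again the lowest. Usp2 rose by 3.40 on the log2 scale (SE 0.44, adjusted p = 0.00131). Gm49380 covers Usp2 on the opposite strand, with 278 counts in control replicate 1 and 0 in the other libraries.

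Wee1 (ENSMUSG00000031016, chromosome 7, 109721253 to 109742493) was at 18.4, 16.2 and 4.82 CPM in ethanol replicates 1, 2 and 3, against 1.64, 1.42 and 1.26 CPM in control mice. The groups did not overlap, and ethanol replicates 1 and 2 were close together. Wee1 rose by 3.19 on the log2 scale (SE 0.49, adjusted p = 0.00239), or 3.59 without ethanol replicate 3. No other gene of the table overlaps Wee1, Nfil3 or Hlf.

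Noct (ENSMUSG00000023087, chromosome 3, 51131868 to 51159065) was at 34.4, 47.5 and 18.2 CPM in ethanol-exposed mice and at 14.2, 16.5 and 16.2 CPM in control mice. Ethanol replicate 3 was just above the highest control library on this scale. On the deposited FPKM scale it was below every control library, at 1.22 FPKM against 1.57, 1.82 and 1.79 FPKM in control replicates 1, 2 and 3. The rise of 1.09 on the log2 scale (SE 0.31, adjusted p = 0.0272) was lost as a call when any library but ethanol replicate 3 was left out. The adjusted p was then 0.0756 and 0.0734 without ethanol replicates 1 and 2, and 0.0988, 0.0777 and 0.0825 without control replicates 1, 2 and 3. Without ethanol replicate 3 the log2 fold change was 1.40. With library size alone it was 0.44 (adjusted p = 0.291).

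**Figure D2:**
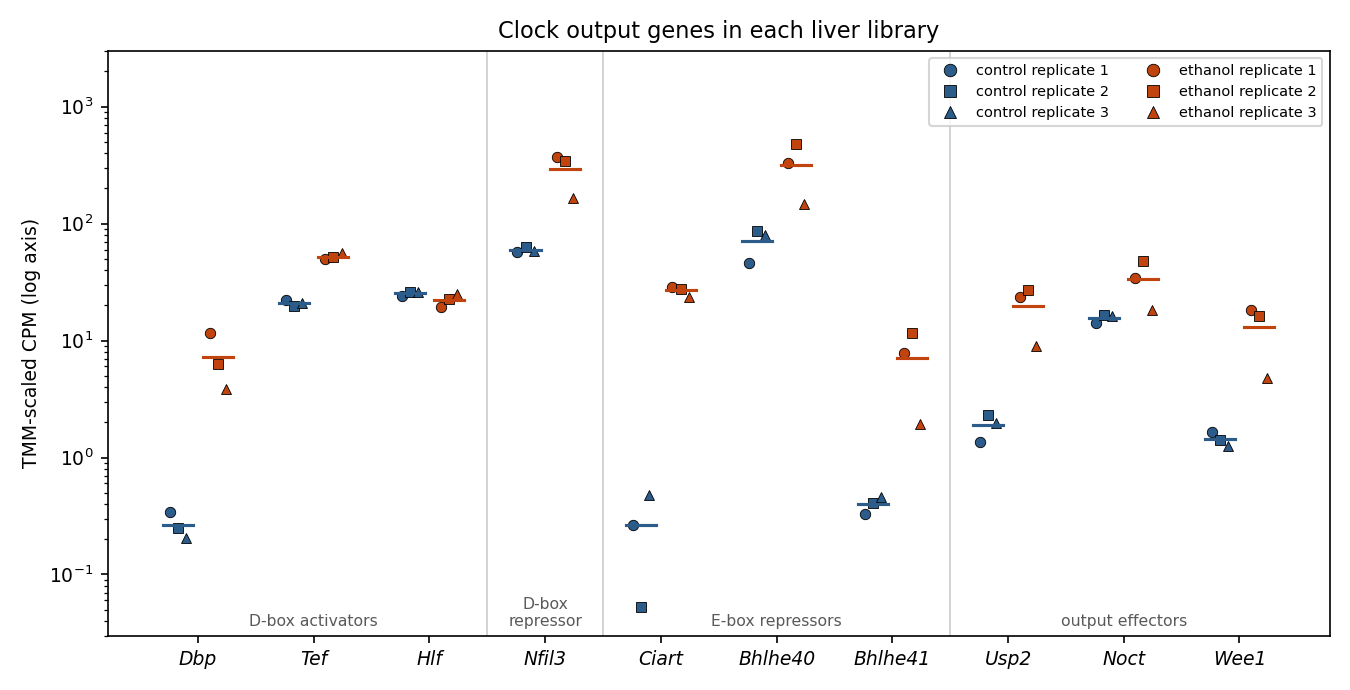
TMM-scaled CPM (log axis) of the 10 clock output genes in each of the 6 libraries; points are mice, coloured by group and shaped by replicate, and short lines are group means of 3. Ethanol libraries lie above control libraries for every gene but Hlf, and ethanol replicate 3 (triangle) is the lowest ethanol library for every gene but Tef and Hlf.

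**Figure D3:**
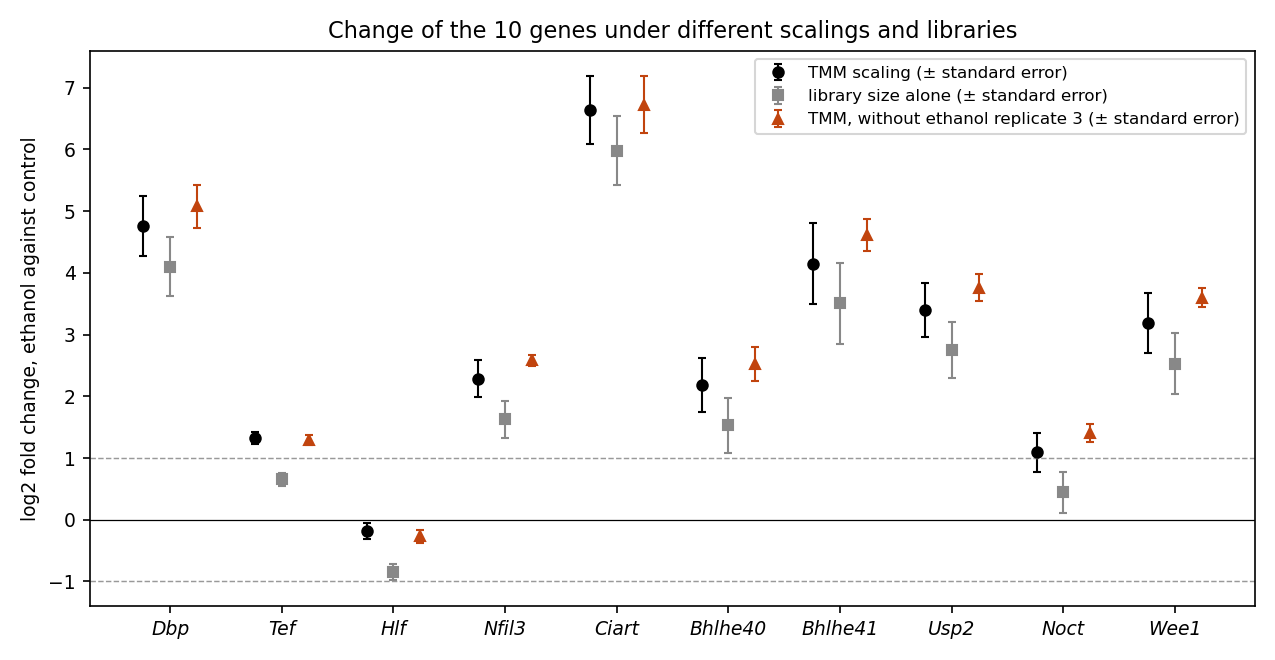
Log2 fold change of each gene, ethanol against control (edgeR, error bars are standard errors), with TMM scaling, with library size alone, and with TMM but without ethanol replicate 3; dashed lines mark 1 and -1. Library size alone lowers every value by a similar amount, which takes Tef and Noct below 1 and Hlf to -0.85.

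Levels of different genes were compared per transcript length on the deposited FPKM scale. In control mice, Nfil3 was the most abundant of the 10 at 34.8 ± 1.84 FPKM (SD, n = 3), followed by Bhlhe40 at 17.6 ± 5.37, Hlf at 4.49 ± 0.177, Tef at 3.12 ± 0.186 and Noct at 1.73 ± 0.136 FPKM. This order was the same in each control library. Wee1 (0.495 ± 0.0681) and Usp2 (0.455 ± 0.118) were within their spread of each other, as were Ciart (0.131 ± 0.110), Dbp (0.0987 ± 0.0269) and Bhlhe41 (0.0679 ± 0.0119 FPKM). In ethanol-exposed mice, Nfil3 (108 ± 42.6 FPKM) and Bhlhe40 (50.7 ± 28.5) stayed at the top. Ciart, at 8.78 ± 1.10 FPKM, came next in all ethanol libraries, above Tef at 4.91 ± 0.307 FPKM. Usp2 (3.08 ± 1.56), Wee1 (2.87 ± 1.61), Hlf (2.48 ± 0.337), Noct (2.35 ± 1.13) and Dbp (1.79 ± 0.949 FPKM) could not be ordered beyond their spread, and Bhlhe41 was the lowest at 0.795 ± 0.573 FPKM. Dbp was thus below Hlf in every control library and above it only in ethanol replicate 1.

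Ratios of the counts of a pair of genes within a library do not depend on the scaling between libraries, and were therefore set beside the fold changes without a test. The log2 ratio of Dbp to Nfil3, activator to repressor, was -4.98, -5.76 and -5.41 in ethanol replicates 1 to 3 and -7.39, -7.99 and -8.15 in control replicates 1 to 3. Both genes rose, and the ratio was higher by 2.46 in ethanol-exposed mice with no overlap. Among the activators, the log2 ratio of Dbp to Hlf was -1.76 ± 0.985 in ethanol-exposed and -6.61 ± 0.419 in control mice (SD, n = 3). The ratio of Tef to Hlf, added after the values were seen, was 1.36, 1.18 and 1.14 in ethanol-exposed mice and -0.14, -0.42 and -0.30 in control mice on the same scale. Tef was thus more abundant than Hlf by counts in each ethanol library and less abundant in each control library, whatever the scaling. The log2 ratio of Bhlhe41 to Bhlhe40 was -5.67 ± 0.507 against -7.42 ± 0.306, also without overlap. The log2 ratio of Ciart to Dbp, from 1.31 to 2.61 in ethanol-exposed and from -2.25 to 1.20 in control mice, was nearly continuous between the groups and rests on few counts in the controls.

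**Figure D4:**
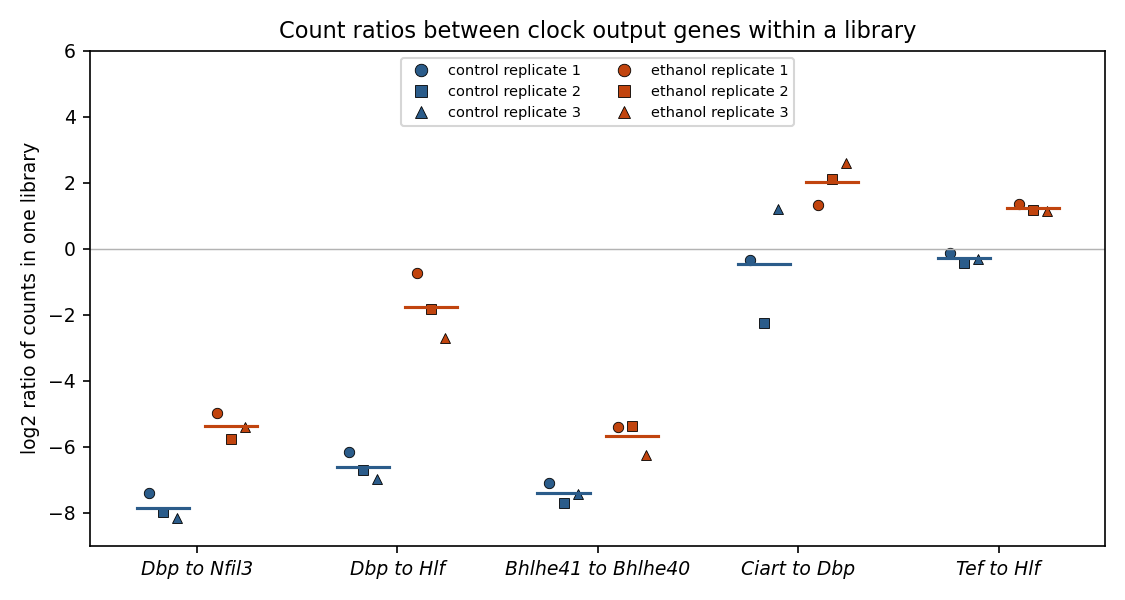
Log2 ratio of the counts of a pair of genes in the same library, for 5 pairs; points are mice, coloured by group and shaped by replicate, and short lines are group means of 3. Dbp to Nfil3, Dbp to Hlf, Bhlhe41 to Bhlhe40 and Tef to Hlf are separated between the groups, and for Ciart to Dbp the highest control library (1.20) nearly meets the lowest ethanol library (1.31).

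In the core loop that drives these genes, Per1 and Cry2 were higher in ethanol-exposed mice. Of 14 core clock genes, all tested, 5 were called higher and 1 lower, beside 10.4% and 13.8% of all genes tested, with a median log2 fold change of 0.29. The number called higher was 2 to 3 when any library but ethanol replicate 3 was left out, and 6 without that library. Per1, a repressor of the loop with D-box and E-box control, had 5791, 6186 and 2748 counts in ethanol-exposed and 682, 409 and 403 counts in control mice (log2 fold change 3.85). Cry2 was called as well, at 2.14, and both calls held under each scaling of the counts, but Cry2 was not called with limma on log2(FPKM + 1) without a filter (1.13, adjusted p = 0.0709). Csnk1e, Per2 and Rora were at 1.45, 1.22 and 1.04, and none of these 3 was called with library size alone. Per2 overlapped between the groups, with ethanol replicate 3 at 13.5 CPM below control libraries at 14.4 and 15.7 CPM, and its call (adjusted p = 0.0454) was lost when any library but ethanol replicate 3 was left out. The call of Rora was lost in the same 5 fits, and that of Csnk1e without control replicate 1 (adjusted p = 0.0545). Neither Per2 (1.07, adjusted p = 0.0997) nor Rora (0.96) was called with the replicate number as a block. Nr1d1, which encodes the repressor REV-ERBα, fell by 1.05 (adjusted p = 0.0279). This call was lost without ethanol replicate 3, when the value was -0.74, and without any control replicate. The E-box activators were below the threshold on the fold change or not significant, with Clock at -0.35, Bmal1 at -0.87 (adjusted p = 0.0146) and Npas2 at -2.67 (adjusted p = 0.0848). Without ethanol replicate 3, Bmal1 was at -1.07 and Npas2 at -5.57, and both were called lower. With the replicate number as a block, Npas2 was at -4.05 and was called lower (adjusted p = 0.0497), while Bmal1 and Clock were not called. With library size alone, Clock, Bmal1, Npas2, Cry1 and Nr1d1 were all called lower. For Npas2, ethanol replicate 3 was at 5.11 CPM, between 0.348 and 0.147 CPM in ethanol replicates 1 and 2 and 9.71 to 13.5 CPM in control mice.

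On the other side of the PAR bZIP factors, 8 liver genes known to depend on them were examined. Of these, 5 were called higher and 0 lower, beside 10.4% and 13.8% of all genes tested (0 at an unadjusted p under 0.05 in edgeR with TMM scaling, and 0 lower by DESeq2 or limma), with a median log2 fold change of 2.94. Por, the electron donor of microsomal P450 enzymes, rose by 3.64 and Alas1, the first enzyme of heme synthesis, by 2.86. Cyp2b10 rose by 4.25, Cyp2a5 by 3.01 and Cyp2a4 by 3.54, where reads of the near-identical Cyp2a4 and Cyp2a5 may have been split. These 5 were called under every alternative tried. Nr1i3 (CAR) was at 0.51, and at -0.16 with library size alone. Cyp2c50 was at 0.03 (-0.64 with library size alone) and Cyp7a1 at -0.86 (-1.51 with library size alone and -0.34 without ethanol replicate 3), neither past the test with TMM scaling. Among 9 genes of the fasting response under PPARα, 3 were called higher, Angptl4 (1.75), Cyp4a10 (1.34) and Cpt1a (1.17), beside 10.4% of all genes tested. The number was 5 without ethanol replicate 3 and 1 with library size alone, where Cyp4a10 was at 0.68 (adjusted p = 0.0793) and Cpt1a at 0.50. None was called lower (0 at an unadjusted p under 0.05 in edgeR with TMM scaling, and 0 by DESeq2 or limma), and the part of fasting in the changes of the clock output genes was not tested.

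**Figure D5:**
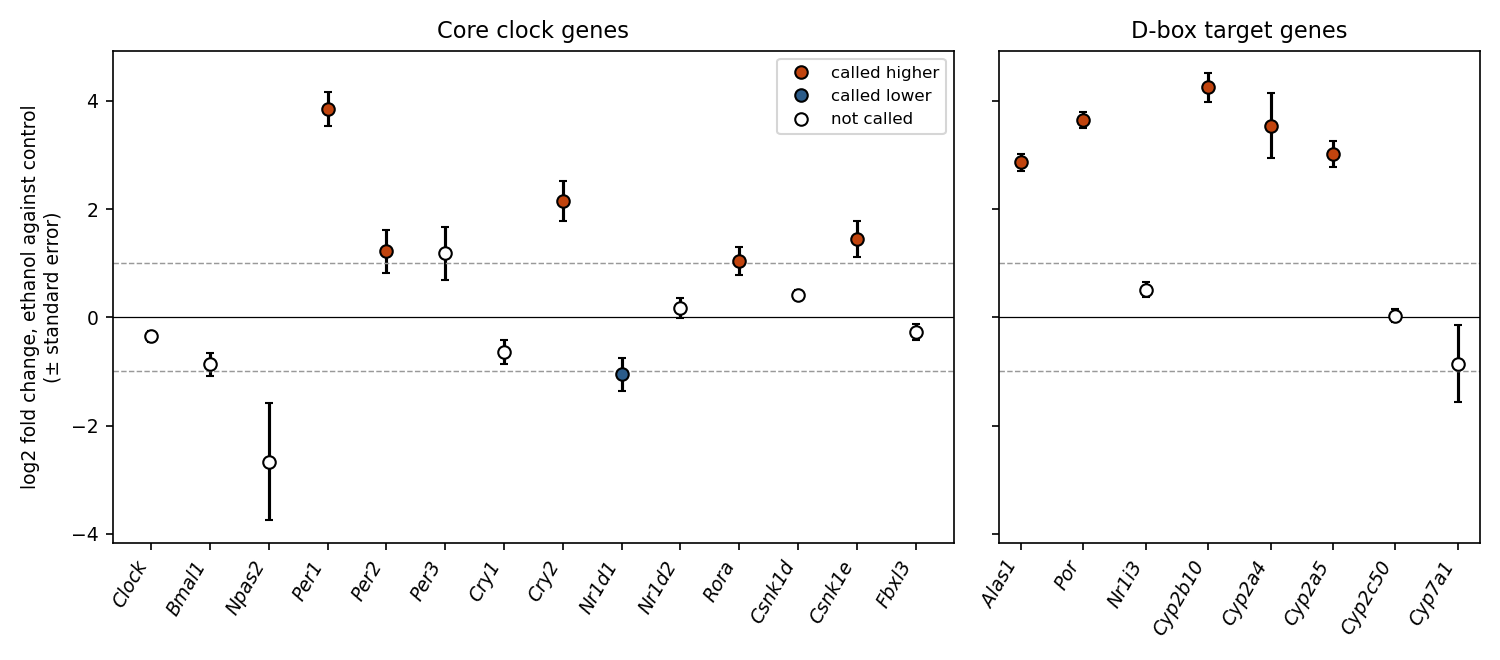
Log2 fold change, ethanol against control, with standard error (edgeR, TMM scaling) for 14 core clock genes and 8 D-box target genes; fill shows the call, and dashed lines mark 1 and -1. Core clock genes lie on both sides of 0, from Npas2 at -2.67 to Per1 at 3.85, and 5 of the 8 D-box target genes are at 2.86 or more.

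The genes whose log2 CPM profile over the 6 libraries, centred on its own mean, was most like that of Dbp were Lpin1, Gm56551 and Slc25a47. Their root mean square differences from Dbp were 0.17, 0.322 and 0.325. Gm56551 was at 0.293 to 0.765 CPM in ethanol-exposed mice and had no count in control mice, so its difference depends on the prior count of 2. Lpin1, a phosphatidate phosphatase, was at 1339, 908 and 606 CPM in ethanol-exposed and 54.7, 39.7 and 39.7 CPM in control mice, the same order of ethanol libraries as Dbp. For Ciart the nearest were Wnt11, Arid5a and Rgs16, at 0.645, 0.660 and 0.716, where Ciart and Wnt11 are low enough in control mice for the prior count to bear on the values. On this measure no gene lay as near to Ciart as Lpin1 lay to Dbp.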

How the data were processed

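Liver RNA-seq from 3 acute ethanol-exposed and 3 control mice was analysed. For each gene and library the authors deposited a raw count of reads and an FPKM value, which they scaled to transcript length and library size. The aligner, the counting software and its strand setting are not given in the sources used here. The submitters' processing notes name GRCm38 and mm10, but 0 of the 10 genes have the start and end of the GRCm38 annotation (GENCODE M21), so gene coordinates are given as deposited and only promoter windows are on GRCm38.p6. In the table, 1 column of counts matched no library and was not used, and 1 pancreas marker (Cpa1) was not analysed here. In addition, 1 core clock gene is not reported here.

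Counts were filtered (filterByExpr), scaled by TMM and tested without covariates by edgeR 4.0.16's quasi-likelihood test in R 4.3.3. The standard error is the log2 fold change divided by the square root of F. Counting error is small at these depths for all but the lowest genes, and the number of mice limits precision. Libraries of a group were not duplicates (ratios of chi-square to its degrees of freedom from 49.6 to 496). The tests were run first on simulated data. The 10 genes, the gene lists and the rule for naming genes (the 10 genes, members of the lists, and the 3 nearest profiles to Dbp and to Ciart, with a prior count of 2) were chosen with earlier results of these data known. Alternatives used other scalings, no filter, DESeq2 1.42.0, limma 3.58.1 on log2(FPKM + 1) or log2(FPKM + 0.1), with a mean FPKM of at least 0.1 or no filter, the replicate number as a block, no threshold on the fold change, and each library left out in turn.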

Additional observations from a re-analysis of the deposited data

How the results depend on the processing

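Dbp, Nfil3, Ciart, Usp2 and Wee1 kept their call under all 15 alternative fits, and no gene of the 10 changed direction in any. Their sizes moved with limma on log2(FPKM + 1), which understates changes of low genes and also carries no TMM factor. The log2 fold change was then 1.29 for Dbp, 1.51 for Nfil3, 3.11 for Ciart, 1.40 for Usp2 and 1.26 for Wee1. The number of the 10 called higher was 5 with limma on log2(FPKM + 1) without a filter, where Tef, Bhlhe40, Bhlhe41 and Noct were not called, 6 with the filter, 7 with limma on log2(FPKM + 0.1) or with library size alone, and 8 to 9 with each library left out in turn. Noct lost its call in 11 of the 15. By the ratio of group mean FPKM, which carries no TMM factor, the log2 change was 0.65 for Tef, -0.86 for Hlf, 1.63 for Nfil3 and 0.44 for Noct. Core clock genes called higher numbered 3 with upper quartile scaling, 2 with library size alone, 2 with limma at either pseudocount, 1 with limma without a filter, 3 with the replicate block, and 2 to 6 with each library left out (2 without control replicate 1, 6 without ethanol replicate 3 and 3 without any 1 of the others). Those called lower numbered 5 with library size alone, 4 in each limma fit, 3 on the adjusted p alone, 2 with the replicate block and 0 to 2 with each library left out (0 without any 1 control, 2 without ethanol replicate 3). Fasting genes called higher numbered 1 with library size alone and in each limma fit, and 3 to 5 with each library left out. The cause of these differences was not tested. Same-numbered libraries of the groups share only a number: their deviations from the group means correlated at -0.03 to -0.02, and 0 of 3 ethanol libraries correlated best with the control of its own number. With the replicate block, 8 of the 10 were called higher, Noct (1.00, adjusted p = 0.0457) falling just below the fold change threshold. Depth limits the low control counts of Ciart, Dbp and Bhlhe41. With 3 mice in each group, outlying libraries were not tested for.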
